A study of Homo sapiens with 6 samples.

Results

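The ribosomal protein paralogs are genes whose products closely resemble a core ribosomal protein and carry its name with an L or L1 at the end. The group held 8 of the 53719 gene rows of the deposited table, chosen by symbol: RPS27L, RPL22L1, RPL39L, RPL26L1, RPL36AL, RPL7L1, RPL3L and RPL10L. The rule for membership uses names alone, but the group was proposed with earlier results of these data known. Each was set beside the core gene it resembles, here called its counterpart: RPS27, RPL22, RPL39, RPL26, RPL36A, RPL7, RPL3 and RPL10.

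All libraries came from H9, an established human embryonic stem cell line that is a single line, held in RSeT, a commercial medium for a naive-like pluripotent state. The knockdown group (3 libraries, a, b and c) received an antisense gapmer to ALR, the alpha satellite RNA transcribed from centromeric repeats. The control group (3 libraries, a, b and c) received a control gapmer, and RNA was taken 48 h after transfection in both. A gapmer is an oligonucleotide with a DNA core that recruits RNase H to the RNA it pairs with. The labels do not say whether the libraries of a group came from separate cultures, so the p-values measure only the spread between these libraries, which may be technical. ALR itself was not analysed here, so the degree of knockdown is not given.

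A cytosolic ribosome carries a fixed set of core proteins, and several of them have a paralog gene that is expressed in fewer tissues or at a lower level. Paralogs arose by duplication of the core gene or by insertion of a copy of its mRNA. RPS27L is a known transcriptional target of p53, the stress-responsive tumour suppressor, and its protein binds MDM2, the ubiquitin ligase that degrades p53. RPL22L1 is held down by RPL22, an RNA-binding protein of the large subunit. RPL39L and RPL10L are best known from male germ cells and RPL3L from striated muscle, while RPL26L1, RPL36AL and RPL7L1 are expressed broadly. Core ribosomal protein mRNAs typically begin with a run of pyrimidines, the terminal oligopyrimidine (TOP) motif, through which mTOR signalling sets their translation.

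The sequences below show how far a read within coding sequence can be told apart between a paralog and its counterpart. Coding sequences were read from the GENCODE release 29 transcripts, 5′ to 3′ from the start codon, with capitals at the bases that differ within the pair. RPS27L and RPS27 both encode 84 codons, and 56 of their 252 coding bases differ:
RPS27L: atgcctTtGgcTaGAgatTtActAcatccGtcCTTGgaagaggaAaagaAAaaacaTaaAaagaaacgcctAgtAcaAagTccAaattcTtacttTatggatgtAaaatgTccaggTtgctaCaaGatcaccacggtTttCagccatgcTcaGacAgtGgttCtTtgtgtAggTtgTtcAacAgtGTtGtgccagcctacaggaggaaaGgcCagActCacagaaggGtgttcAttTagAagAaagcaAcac
RPS27: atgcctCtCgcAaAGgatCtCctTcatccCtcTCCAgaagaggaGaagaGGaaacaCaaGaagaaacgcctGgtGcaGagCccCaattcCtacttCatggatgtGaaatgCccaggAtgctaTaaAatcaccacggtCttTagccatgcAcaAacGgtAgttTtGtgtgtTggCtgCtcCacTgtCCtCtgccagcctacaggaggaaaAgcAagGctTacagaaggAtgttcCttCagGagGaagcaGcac
The pair was 77.8% identical, and its longest shared stretch was 20 bases. RPL39L and RPL39 were the closest pair, with 8 of 153 coding bases different and shared stretches of up to 44 bases:
RPL39L: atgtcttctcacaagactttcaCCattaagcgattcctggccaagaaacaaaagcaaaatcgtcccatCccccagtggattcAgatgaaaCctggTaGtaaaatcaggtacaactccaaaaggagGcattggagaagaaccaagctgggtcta
RPL39: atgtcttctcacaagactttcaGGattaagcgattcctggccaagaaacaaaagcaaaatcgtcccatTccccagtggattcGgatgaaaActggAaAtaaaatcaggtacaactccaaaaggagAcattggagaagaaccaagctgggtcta
Among the other pairs, identity was 89.9% for RPL36AL, 89.3% for RPL10L, 84.1% for RPL26L1, 75.9% for RPL3L, 68.6% for RPL22L1 and 56.4% for RPL7L1. RPL36AL and RPL10L shared stretches of up to 60 and 50 bases with their counterparts. By coding identity, reads of RPL39L, RPL36AL and RPL10L are the hardest of the group to tell from those of the counterpart. The untranslated parts of the transcripts were not compared. Read length and the handling of reads with several matches are not given in the sources used here, so the effect on the counts is not known.

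Paralogs and counterparts were also compared at their starts, where the TOP motif lies. Promoter windows from RefSeq (GRCh38.p14, 250 bases before to 50 after the annotated start) were matched by symbol for 6 of the 8 paralogs and 7 of the 8 counterparts. RPL39L, RPL3L and RPL7 had no match. A run of at least 7 C or T bases on the sense strand that touched the 10 bases either side of the start was taken as TOP-like. Its full length was counted, including bases before the start or outside that window. Such a run was found in 2 of 6 paralogs and 6 of 7 counterparts, compared with 57 of 63 core ribosomal protein genes (90.48%) and 7017 of 27305 genes in all (25.7%). The windows of 30 bases below begin 12 bases before the start, and capitals mark the longest pyrimidine run that touches the search window:
RPS27L, chr15:63157460-63157489, minus strand: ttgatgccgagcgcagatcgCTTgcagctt
RPS27, chr1:153990750-153990779, plus strand: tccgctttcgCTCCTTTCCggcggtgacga
RPL22L1, chr3:170870178-170870207, minus strand: ggccgtagCTTCCTCTCTgctctcgcggcc
RPL22, chr1:6199578-6199607, minus strand: ttcgctcaCCTCCCTTTCTaactccgctgc
RPL36AL, chr14:49620609-49620638, minus strand: TTTCTTCCCTTTCCTgttaggcgagagctg
RPL7L1, chr6:42879604-42879633, plus strand: aagtgcggcgCCgtagctaggagcggacgc
RPL22L1 and RPL36AL carried runs of 10 and 15 bases. Counted from the start base as 0, they lay at -4 to 5 and at -12 to 2, so most of the RPL36AL run lay before the start. The longest run at the RPS27L start was 3 bases, against 9 at RPS27. A match of letters is a description of the window and no evidence of regulation, and runs shorter than 7 bases were not counted.

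RPS27L was the paralog furthest from 0 in the knockdown comparison, but it did not pass the test across all genes. Its level, in CPM (read counts divided by library size, with sizes scaled by edgeR's TMM method and put on a common base), was 22.1, 24.8 and 18.7 after knockdown and 26.5, 27.3 and 28.7 CPM in controls, each time in the order of libraries a, b and c. This order holds for all series of 3 values that follow. All 3 knockdown libraries lay below all 3 controls, with knockdown c lowest and control c highest. The means were 21.9 ± 3.05 and 27.5 ± 1.15 CPM (SD, n = 3 per group), a log2 fold change of -0.33 ± 0.10 (SE; 95% interval -0.54 to -0.11), or a change of -20.3%. By edgeR's quasi-likelihood test the unadjusted p was 0.006 and the Benjamini-Hochberg adjusted p over all genes was 0.161. The gene ranked 733 of 19721 by p. Its counts ranged from 473 to 1044 per library, so counting error alone was 4.6% in the shallowest. DESeq2 gave an adjusted p of 0.0719 and limma-voom 0.153. In bulk RNA, fewer cells with the transcript and less transcript per cell cannot be told apart.

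No paralog was called at an adjusted p under 0.05 among the 7 that passed the low-count filter, where the background was 155 of 19721 genes (0.786%). DESeq2 and limma-voom also called 0, beside backgrounds of 4.05% and 0.882%. RPS27L was called with no low-count filter (adjusted p = 0.0209 in edgeR), where the background was 3.29%. At an unadjusted p under 0.05, RPS27L was the 1 paralog of 7, against 14.3% of all genes, and it was the 1 whose groups did not overlap, against 18.9%. With so few members these shares do not set the paralogs apart from other genes. The median log2 fold change of the 7 tested paralogs was -0.0012, against 0.02 over all genes tested. None of the 7 tested counterparts was called, and 0 had an unadjusted p under 0.05 in edgeR.

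**Figure D1:**
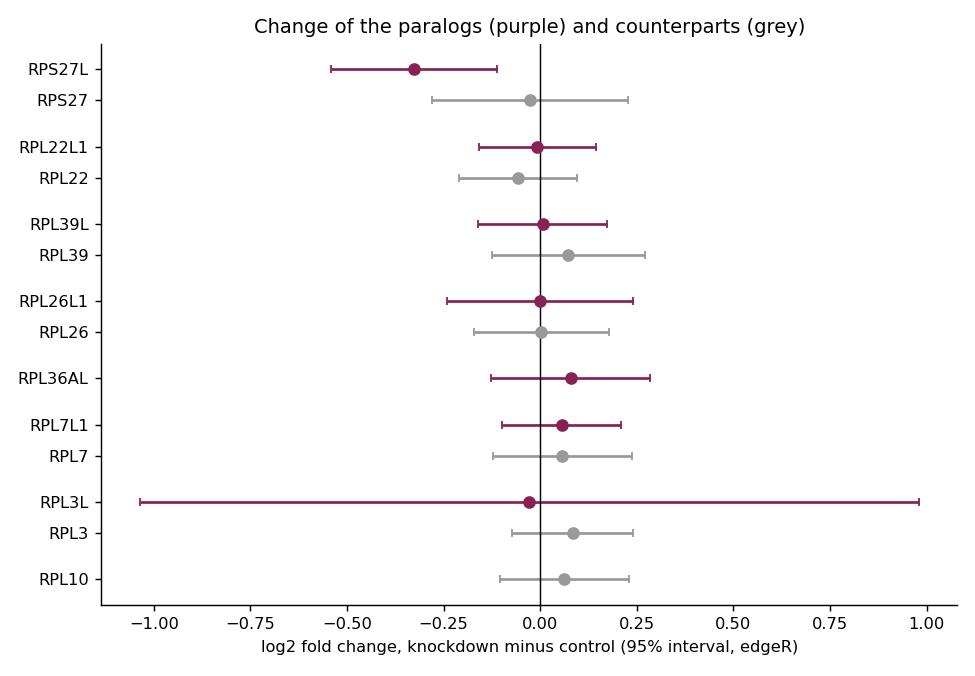
Log2 fold change of each tested paralog (purple) and counterpart (grey), knockdown minus control, with 95% intervals from edgeR's quasi-likelihood fit over 3 libraries per group. RPS27L is the point whose interval does not reach 0; RPL3L has the widest interval, -1.03 to 0.98.

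In GENCODE release 29 (build GRCh38), the RPS27L gene (ENSG00000185088.13, protein-coding) covers chr15:63125872-63158021 on the minus strand. Its principal transcript has 4 exons and 6434 bases, of which 252 are coding. LACTB, which encodes a mitochondrial filament-forming protein, overlaps it on the opposite strand. LACTB had 35 to 59 counts per library, and its log2 fold change was 0.11 ± 0.27 (SE; adjusted p = 0.89 in edgeR). The annotation and strand setting used in counting are not given in the sources used here, so the extent of the counted RPS27L row may differ.

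RPS27L was then read beside the p53 pathway, the pathway it is known to belong to. The p53 response induces a set of genes for arrest, repair and death, and MDM2, itself a target, closes the loop by degrading p53. Of 31 listed p53 targets other than RPS27L, 26 were tested in edgeR and 6 fell at an adjusted p under 0.05, against a background of 0.649% of genes called lower, while 0 rose. In all, 23 of the 26 had values below 0, and their median log2 fold change was -0.29, beside 0.02 over all genes tested. RPS27L, at -0.33, had 11 listed targets more negative and 15 less negative than itself. This list was drawn up with results of these data known, so its direction is not independent evidence.

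The targets with the smallest p were MDM2, EDA2R, TNFRSF10B and CDKN1A. MDM2 was 179, 185 and 187 CPM after knockdown and 251, 273 and 241 CPM in controls. It fell by 0.47 on the log2 scale (edgeR adjusted p = 0.0065). EDA2R, a receptor of the tumour necrosis factor family, fell by 0.70 (edgeR adjusted p = 0.0071), and TNFRSF10B, the death receptor DR5, fell by 0.41 (edgeR adjusted p = 0.0148). CDKN1A, the cell cycle inhibitor p21, fell by 0.66 (edgeR adjusted p = 0.024). In these 4 genes knockdown c was not the lowest library, whereas for RPS27L it was. All 4 lost the call without control a: the adjusted p was then 0.0678 for MDM2, 0.0999 for EDA2R, 0.106 for TNFRSF10B and 0.119 for CDKN1A in edgeR. Without control b it was 0.0746 for MDM2, 0.0853 for TNFRSF10B and 0.114 for CDKN1A. Without control c it was 0.0882 for EDA2R and 0.0793 for TNFRSF10B. Without knockdown b it was 0.0582 for TNFRSF10B and 0.0938 for CDKN1A, and without knockdown a 0.0528 for CDKN1A.

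Several core ribosomal proteins bind MDM2 when ribosome assembly is disturbed, among them the products of RPL5, RPL11, RPL23 and RPS27. Of 8 such ribosomal protein genes listed, all were tested and 0 were called in edgeR, against 0.786% of all genes tested. At an unadjusted edgeR p under 0.05 there were 0, against 14.3% of all genes. With so few genes these shares do not set them apart from other genes. The smallest p-values belonged to RPS14, at 0.06 (edgeR adjusted p = 0.791), and RPS3, at 0.05 (edgeR adjusted p = 0.808). RPS27, the counterpart of RPS27L, was 135, 132 and 112 CPM after knockdown and 148, 136 and 103 CPM in controls. Its groups overlapped, and the log2 fold change was -0.03 (95% interval -0.28 to 0.23; edgeR adjusted p = 0.942).

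The RPS27L promoter window held 1 match to the consensus half-site of p53, a 10-base pattern searched on both strands (the pattern reads alike on either). The half-site starts 59 bases before the RefSeq start and is shown in capitals within 30 bases of its surroundings, because RPS27L is a known p53 target:
RPS27L, chr15:63157517-63157546, minus strand: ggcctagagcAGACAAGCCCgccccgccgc
In RefSeq windows of the same length, 2202 of 27305 genes (8.06%) held such a match, and 6 of the 25 listed p53 targets with a window (24.0%) did. RPS27 also held 1. In GENCODE release 29 the RPS27L gene starts earlier, at chr15:63158021, so the match lies inside the annotated gene. A functional p53 site normally has a pair of half-sites, so a single match does not mark a site.

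RPL22L1 showed no difference beyond the spread of its libraries. It was 48.2, 49.7 and 45.5 CPM after knockdown and 46.8, 46.3 and 51.0 CPM in controls. The groups overlapped, and the log2 fold change was -0.0074 (95% interval -0.16 to 0.14; edgeR adjusted p = 0.976). Its counterpart RPL22 was at -0.06 (95% interval -0.21 to 0.09; edgeR adjusted p = 0.753).

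RPL39L, the most abundant paralog per length, was 146, 150 and 165 CPM after knockdown and 159, 161 and 139 CPM in controls. Knockdown c was its highest library and control c its lowest, and the groups overlapped. The log2 fold change was 0.006 (95% interval -0.16 to 0.17; edgeR adjusted p = 0.983). RPL39 was at 0.07 (95% interval -0.13 to 0.27; edgeR adjusted p = 0.765), and its lowest library was knockdown c.

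RPL26L1 and RPL36AL, both broadly expressed, also overlapped between groups. RPL26L1 was 14.6, 13.5 and 11.1 CPM after knockdown and 12.9, 12.9 and 13.5 CPM in controls. Its highest library was knockdown a and its lowest knockdown c, so that the controls lay within the knockdown range. The log2 fold change was -0.0012 (95% interval -0.24 to 0.24; edgeR adjusted p = 0.998). RPL36AL was 58.6, 63.1 and 48.1 CPM after knockdown and 55.5, 55.8 and 49.8 CPM in controls. Knockdown b was highest and knockdown c lowest, and the log2 fold change was 0.08 (95% interval -0.13 to 0.29; edgeR adjusted p = 0.755). Without knockdown c it was 0.16, with an unadjusted edgeR p of 0.0448 and an adjusted p of 0.244.

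RPL36A, the X-linked counterpart of RPL36AL, had 0, 0 and 7 counts after knockdown and 2, 0 and 6 in controls, so the pair could not be compared. GENCODE release 29 places a readthrough gene, RPL36A-HNRNPH2, on the same strand over it. In these libraries RPS4X, RPL15, RPL17, RPL32 and RPL35A, core genes that every growing cell uses, were listed at 0 throughout. A low or zero row for a core ribosomal protein is therefore no measure of its mRNA here.

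RPL7L1, related to RPL7 and linked to assembly of the large subunit, was the paralog with the most counts. It was 200.01, 205.5 and 178 CPM after knockdown and 184, 194 and 183 CPM in controls. The groups overlapped through knockdown c, the lowest library. The log2 fold change was 0.06 (95% interval -0.10 to 0.21; edgeR adjusted p = 0.768), and that of RPL7 was 0.06 (95% interval -0.12 to 0.24; edgeR adjusted p = 0.799).

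RPL3L and RPL10L were near the limit of detection. RPL3L had 11, 28 and 11 counts after knockdown and 24, 13 and 17 in controls, a level under 1 CPM in every library. Its log2 fold change of -0.03 had a 95% interval of -1.03 to 0.98 (edgeR adjusted p = 0.987). Changes of up to 0.98 on the log2 scale in either direction lay within that interval. RPL3, its counterpart, had 22874 to 35097 counts per library and a log2 fold change of 0.08 (95% interval -0.07 to 0.24; edgeR adjusted p = 0.643). RPL10L had 5, 5 and 2 counts after knockdown and 2, 2 and 11 in controls. It did not pass the low-count filter and was not tested. RPL10, the X-linked counterpart, was at 0.06 (95% interval -0.10 to 0.23; edgeR adjusted p = 0.761).

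Markers of the tissues in which RPL3L and RPL10L are best known were mostly listed at low values. Because core genes and SOX2, a defining pluripotency gene, were also listed at 0, a zero here is not read as absence. Of 10 striated muscle markers, 6 were under 1 CPM on average, with MYL2 listed at 0 in 5 of the 6 libraries. Their summed level was 21.5 to 23.7 CPM in knockdown and 22.5 to 23.0 CPM in control libraries. Of 10 germ cell markers, 7 were under 1 CPM, with SYCP3, TNP1, PRM1 and PRM2 listed at 0, and their sum was 16.7 to 20.9 CPM in knockdown against 22.7 to 24.7 CPM in control libraries, which did not overlap. Of the 4 tested germ cell markers, 1 was called in edgeR, against 0.786% of all genes. DAZL and MAEL were below 0 and SYCP1 and DDX4 above. DAZL, an RNA-binding protein, carried the lower sum and was the 1 called, at 10.2 ± 0.959 CPM in knockdown against 16.5 ± 1.45 CPM in control libraries (SD, n = 3; log2 fold change -0.69, edgeR adjusted p = 0.012). It lost the call without knockdown b (edgeR adjusted p = 0.0547) and without control a, b or c (0.0636, 0.0973 and 0.115). SYCP1 went the other way, at 5.90 against 4.75 CPM (log2 fold change 0.31, edgeR adjusted p = 0.399). DAZL and SYCP1 are named after their values were seen. Of 10 pluripotency markers, 9 were above 1 CPM, summing to 7620 to 8533 CPM in knockdown and 7530 to 7706 in control. The marker below it was SOX2, listed at 0 in all libraries. Of the 9 tested pluripotency markers, 7 were above 0 and 2 below, beside 10736 and 8985 of all genes tested. In edgeR 0 were called, against 0.786% of all genes, and 2 had an unadjusted p under 0.05, against 14.3%. The groups did not overlap in 4 of these markers, against 18.9% of all genes. POU5F1, also named after its values were seen, was at 133 CPM in knockdown against 99.8 CPM in control libraries (log2 fold change 0.42, edgeR adjusted p = 0.0948). The part of these differences in the paralog values was not tested.

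**Figure D2:**
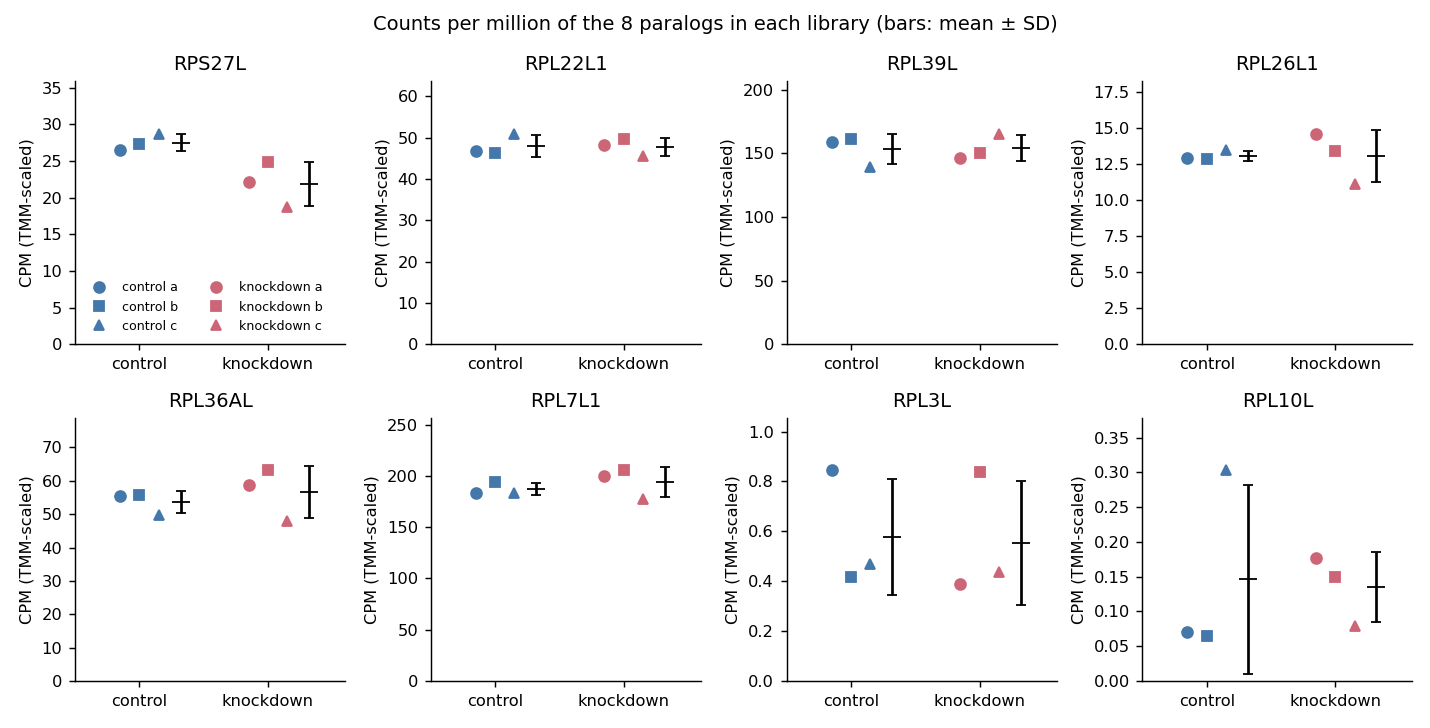
Level of each of the 8 paralogs in every library, in TMM-scaled CPM (linear axes from 0, each with its own scale); blue marks are controls, red marks knockdown, shapes give the library letter, and bars are mean ± SD of 3 libraries. RPS27L is the panel in which the groups do not overlap, at 18.7 to 24.8 against 26.5 to 28.7.

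Per kilobase of exon annotated in GENCODE release 29, the paralogs spanned a wide range. The annotation used in counting is not given, so the lengths that were counted may differ from these. The mean over the 6 libraries, in TMM-scaled CPM per kilobase, was 145 for RPL39L, 73.9 for RPL36AL, 24.4 for RPL7L1 and 20.6 for RPL22L1. It was 11.2 for RPL26L1, 2.71 for RPS27L, 0.205 for RPL3L and 0.173 for RPL10L. Each step of this order separated all 6 libraries of one gene from all 6 of the next, except the last: RPL3L (0.141 to 0.306) and RPL10L (0.0793 to 0.373) overlapped. The narrowest separated step was from RPL7L1 (lowest library 22.8) to RPL22L1 (highest library 21.9). RPS27L has the longest annotated exons of the group, 9127 bases, which lowers its value on this scale. With the principal transcript's length instead, the order was the same and RPS27L was at 3.84.

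RPL36AL exceeded its barely counted counterpart in every library. Among the other paralogs, only RPL39L had a level per kilobase of exon above its counterpart's in all 6 libraries, at 132 to 156 against 70.8 to 92.7 for RPL39. That direction depended on the length used: with the principal transcripts, RPL39L was at 203 and RPL39 at 438 on average. RPS27 was at 123 and RPS27L at 2.71, while RPL22 was at 53.5 beside 20.6 for RPL22L1. RPL26 was at 56.8 beside 11.2 for RPL26L1, and RPL7 at 204 beside 24.4 for RPL7L1.

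**Figure D3:**
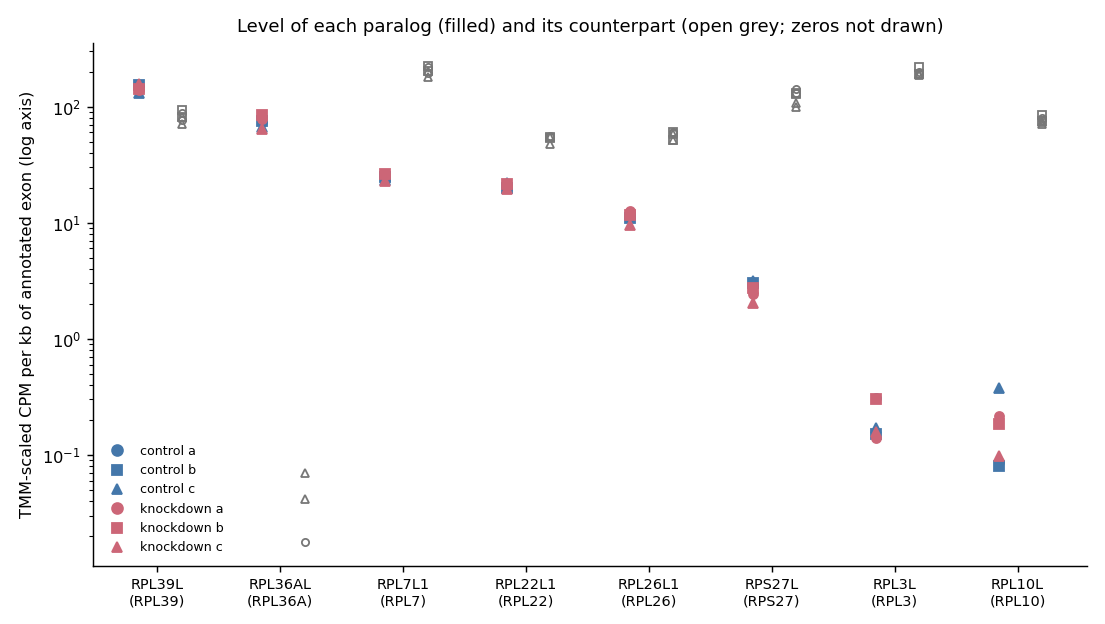
Level per kilobase of annotated exon (TMM-scaled CPM per kilobase, log axis) of each paralog (filled) and its counterpart (open grey) in the 6 libraries; libraries at 0 are not drawn. The paralogs run from 145 for RPL39L down to 0.173 for RPL10L on average, and RPL39L and RPL36AL are the ones lying above their counterparts on this length. RPL36A, the counterpart of RPL36AL, had 15 counts over the 6 libraries, and its low row is no measure of its mRNA here.

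Because both genes of a pair are counted in the same library, their ratio needs no scaling between libraries. RPS27L counts were 16.4%, 18.8% and 16.7% of RPS27 counts after knockdown and 17.9%, 20.2% and 27.9% in controls. The groups overlapped, with control c well above the rest. The difference in mean log2 ratio was -0.32 (n = 3 per group; exact permutation p = 0.20, two-sided, adjusted p = 1.0 over 6 pairs). The smallest p this design can give is 0.10. Without control c the difference was -0.14, so control c, in which RPS27 was lowest, carried much of it.

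RPL39L varied more between libraries, at 76.8%, 75.7% and 109% of RPL39 after knockdown and 96.5%, 92.6% and 79.8% in controls. Knockdown c was the 1 library in which RPL39L counts exceeded RPL39 counts. The group difference was -0.06 (exact permutation p = 0.80, two-sided). RPL22L1 was 18.8%, 19.4% and 20.4% of RPL22 after knockdown and 18.02%, 18.4% and 20.05% in controls, a difference of 0.05 (exact permutation p = 0.40). RPL7L1 was 31.2% to 33.8% of RPL7 in knockdown and 31.0% to 33.0% in control libraries (difference 0.0018, exact permutation p = 1.0). RPL26L1 was 8.64% to 9.89% of RPL26 in knockdown and 8.56% to 9.94% in control libraries (difference -0.01, exact permutation p = 0.90). RPL3L was under 0.1% of RPL3 in every library (difference -0.14, exact permutation p = 0.60). The groups overlapped in all 6 pairs, and all 6 adjusted p-values were 1.0. With a smallest possible p of 0.10, no pair could have passed 0.05, so the permutation test cannot show that the ratios were unchanged.

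**Figure D4:**
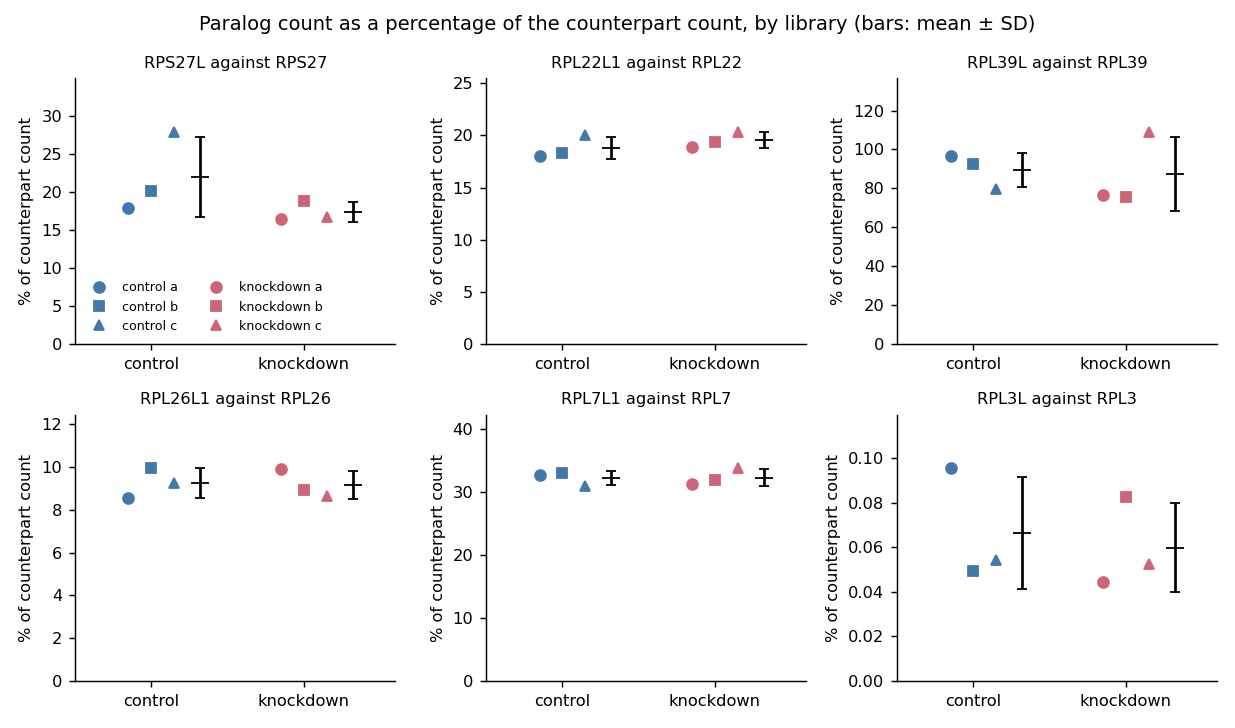
Paralog counts as a percentage of counterpart counts in each library for the 6 pairs with both genes tested (linear axes from 0, each with its own scale); blue marks are controls, red marks knockdown, shapes give the library letter, and bars are mean ± SD of 3 libraries. The groups overlap in each panel; control c stands highest for RPS27L at 27.9% and knockdown c highest for RPL39L at 109%.

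The paralogs' spread among libraries followed 1 library in particular. Knockdown c was the lowest library for 5 of the 7 tested paralogs, for 6 of the 7 tested counterparts and for 54 of 72 tested core ribosomal protein genes (75%), compared with 16.5% of all genes tested. Its median deviation from a gene's mean over the 6 libraries was -0.19 on the log2 scale for the paralogs and -0.14 for core ribosomal protein genes, beside 0.0061 for all genes. Knockdown b was highest for 51 of the 72 core genes, with a median deviation of 0.12. Over all genes it was highest for 4777 of 19721, with a median deviation of 0.013. RPL39L went the other way, at 0.11 in knockdown c.

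Core ribosomal protein genes lay close to 0 on average. Of 79 listed, 72 were tested and 0 were called in edgeR, against 0.786% of all genes tested. RPL21 was the 1 with an unadjusted edgeR p under 0.05, against 14.3% of all genes. The median log2 fold change of the 72 was 0.03, with 50 above 0 and 22 below. Over all genes tested it was 0.02, with 10736 above 0 and 8985 below. RPL21 was at -0.20 (edgeR adjusted p = 0.258), RPS26 at 0.15 (edgeR adjusted p = 0.469), RPL13 at 0.14 (edgeR adjusted p = 0.477) and RPL34 at -0.11 (edgeR adjusted p = 0.506).

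**Figure D5:**
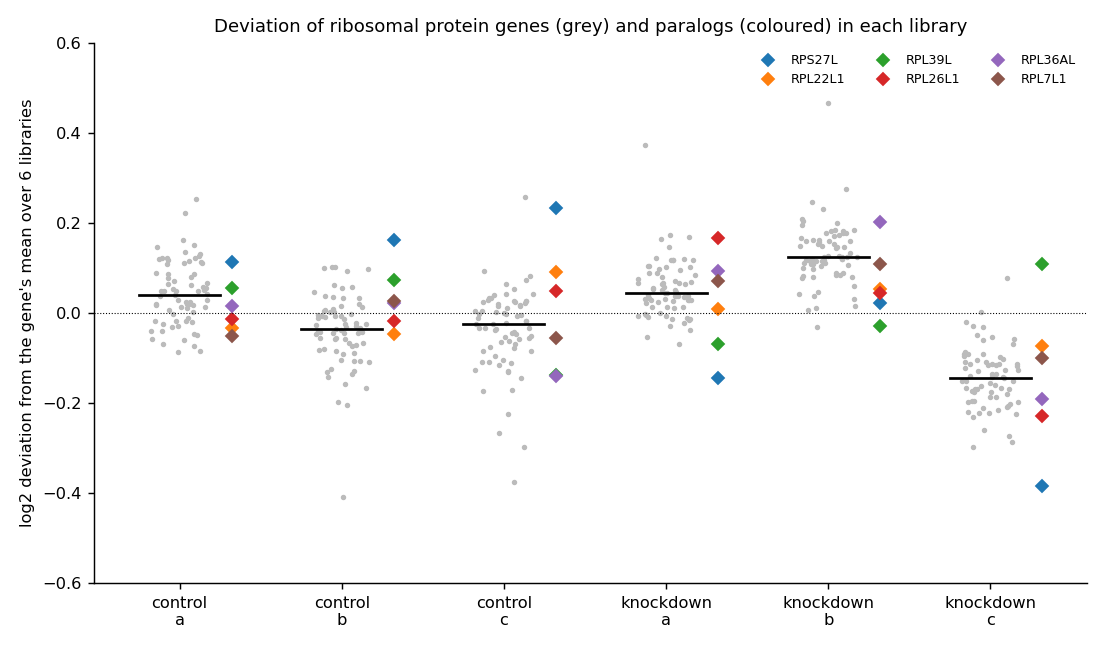
Log2 deviation of each core ribosomal protein gene (72 genes, grey) and of 6 paralogs (coloured diamonds) from its own mean over the 6 libraries; black bars are medians of the grey points, and 1 gene has a point beyond 0.6 that is not drawn. The grey points sit low in knockdown c (median -0.14), where RPS27L is lower still at -0.38 and RPL39L is at 0.11.

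Since the core genes were low in knockdown c, each paralog was also set against the geometric mean of the 72 core rows in its own library, a comparison added after the data had been seen. RPS27L was 8.45%, 8.99% and 8.21% of that mean after knockdown and 10.2%, 11.1% and 11.7% in controls. The groups did not overlap, and knockdown c no longer stood apart from knockdown a. The difference in mean log2 ratio was -0.37 (exact two-sided permutation p = 0.10, again the smallest possible; adjusted p = 0.70 over 7 paralogs). Leaving out each library in turn gave differences of -0.42 to -0.32. The other 6 paralogs overlapped between groups, with differences of -0.09 to 0.04 and exact permutation p-values of 0.60 to 0.80.

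The genes whose pattern over the 6 libraries was most like that of RPS27L were found by Pearson correlation of log2 CPM among 11651 genes with a mean count of at least 200. They were ADCY1, an adenylyl cyclase (r = 0.996), KIF5C, a kinesin motor (r = 0.992), ARRDC3, an arrestin family protein (r = 0.991), WNT9A, a Wnt ligand (r = 0.989), and KIAA0368 (r = 0.985). All 5 were lowest in knockdown c and highest in control c. Their log2 fold changes ran from -0.23 to -0.07, and none was called. With 6 points shared by all genes and the closest picked from so many candidates, these values describe likeness only.

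The libraries held 25087629 to 36576752 counts. Knockdown a had counts in 29678 rows and the others in 25898 to 26788. RPS27L was -0.34 without knockdown a, so its difference did not rest on that library. Without control c, its unadjusted edgeR p was 0.0283, the highest over all 16 alternatives.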

How the data were processed

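The members and gene lists were chosen with earlier results of these data known. The authors deposited raw read counts per gene symbol for 6 libraries. Per the submitters' processing notes, Trimmomatic 0.39, STAR 2.7.8a, featureCounts and Subread 2.14.2 were used with build hg38; annotation, strand and multi-mapping settings are not given in the sources used here. RNA was sequenced as total RNA from a directional kit, per the labels' protocols. Library totals were 27612199, 33698831 and 25087629 (knockdown a, b and c) and 28834926, 31352910 and 36576752 (control a, b and c).

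Genes were kept by filterByExpr (19721 tested), scaled by TMM and tested with edgeR 4.0.16 (R 4.3.3; glmQLFit, glmQLFTest, group as the only term, two-sided, Benjamini-Hochberg over all genes, threshold 0.05). Log2 ratios of paralog to counterpart had 1 count added to each; SciPy 1.17.1 gave the exact permutation p. GENCODE release 29 gave lengths, positions and coding sequences. Pairs were aligned with Biopython 1.88. RefSeq gave promoter windows.

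All members and counterparts are named; from each pathway list at most 4 genes of smallest p; and 5 genes by likeness to the member of smallest p. One gene that this rule takes is not reported here. Alternatives were other scalings, tests (DESeq2 1.42.0, limma 3.58.1 voom) and filters, removal of a length trend, a replicate block, other pseudocounts and leaving out each library. The edgeR procedure was tested on simulated data, and the permutation test on made-up values for separated and for mixed groups. Library letters were not used to pair the samples in the main fit. Deviations of same-lettered libraries correlated at 0.0051, 0.11 and -0.02 for a, b and c. With 3 libraries per group, these values cannot exclude a batch shared by letter.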

Additional observations from a re-analysis of the deposited data

How the results depend on the processing

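RPS27L stayed below 0 under all 16 alternatives, from -0.44 to -0.25, with an unadjusted p under 0.05 in each, and its adjusted p ranged from 0.0209 to 0.512. It passed the threshold under 1, with no low-count filter (-0.33, adjusted p 0.0209), where 1 paralog and 1064 of 32300 genes (3.29%) were called. The cause of that change was not tested. Genes called numbered 155 in edgeR, 536 in DESeq2, 393 with the replicate block (RPS27L adjusted p 0.0993), 296 with the length trend removed (16044 genes) and 26 to 1309 with 1 library left out: 102, 61 and 1309 without knockdown a, b and c, and 26, 42 and 42 without control a, b and c. Of calls, 17.4% were higher by TMM, 35.4% by library size alone and 28.7% by upper quartile.

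Members and counterparts near 0 changed sign. RPL26 was -0.0026 with DESeq2 size factors and in DESeq2, -0.012 with ribosomal protein rows left out of the scaling and -0.050 with the length trend removed. RPL39L was -0.0086 and -0.040 under the last pair of settings. By library size alone RPL22L1 was 0.019, RPL26L1 0.026 and RPS27 0.0014; by upper quartile RPL22L1 was 0.0097 and RPL26L1 0.017. With 1 library left out, RPL22L1 ran from -0.043 to 0.039, RPL39L from -0.068 to 0.042, RPL26L1 from -0.090 to 0.079, RPL36AL from -0.015 to 0.16, RPL3L from -0.48 to 0.34, RPS27 from -0.17 to 0.091, RPL39 from -0.0098 to 0.16, RPL26 from -0.066 to 0.055, RPL10 from -0.0056 to 0.12, RPS14 from -0.026 to 0.12 and RPS3 from -0.0082 to 0.093. The core ribosomal protein median ran from -0.04 to 0.08.

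Ratios with 1 library left out ran from -0.23 to 0.035 for RPL39L against RPL39, -0.071 to 0.040 for RPL26L1 against RPL26, -0.031 to 0.026 for RPL7L1 against RPL7 and -0.40 to 0.16 for RPL3L against RPL3. Against the core rows they ran from -0.079 to 0.020 for RPL22L1, -0.15 to 0.054 for RPL39L, -0.00044 to 0.081 for RPL36AL, -0.012 to 0.064 for RPL7L1 and -0.35 to 0.19 for RPL3L. Other pseudocounts changed no direction. With a mean count of at least 50, RPL3L was not tested.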

Other observations

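Reads were also counted in rows of ribosomal protein pseudogenes. Named pseudogenes of RPL3 held 17521 counts over the 6 libraries, 10.2% of the RPL3 counts, of which RPL3P4 held 16858. Those of RPL39 held 530 counts (1.64% of RPL39), of which RPL39P5 held 485. RPL7L1 had 12 pseudogene rows with 43 counts, 0.123% of its own, and no named pseudogene row was found for the other 7 paralogs.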
